A study of Mus musculus with 36 samples.

Results

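Wild-type (WT) primary hepatocytes (PH) that had spent 24 h in culture were compared with the liver (L) of the same mice by RNA sequencing. The members are the libraries that the labels give as WT and as PH or L, which are 11 of the 36 libraries of the study: 6 PH libraries (mice 544, 548, 554, 556, 558 and 564) and 5 L libraries (the same mice without 558). The liver library of mouse 558 was left out because it held 2547422 counts and had a mean Spearman correlation of 0.7808 with the other liver libraries, against 0.9414 to 0.9829 for all other libraries with their own sample type. WT stands for female C57BL6 littermates that carried the floxed Nampt gene without Cre, so the controls of the study share the floxed allele. They were 10 to 12 weeks old when they were put on a purified diet defined by its L-amino acids (PD), which they ate for 3 to 5 weeks. L was cut from the median lobe, taken from the sedated animal after the blood had been flushed out and before collagenase reached the tissue. PH came from the remaining lobes, so the comparison also sets the median lobe against the others. The dissociated cells (the cell suspension, CS, 6 WT libraries) were plated on collagen and detached with trypsin after the culture. The culture medium that the paper describes held dexamethasone, a glucocorticoid, and insulin, to which the liver pieces were not exposed. The second genotype of the study, HNKO, lacks Nampt in hepatocytes through Cre recombinase driven by the Alb promoter, and its 12 PH and L libraries are used for 1 comparison at the end.

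Hepatocytes are the parenchymal cells of the liver and make most plasma proteins, bile acids, urea and much of the glucose released in fasting. They are held in this state by a set of liver-enriched transcription factors and by hormones, neighbouring cells and the portal blood. When they are taken out of the organ and plated, hepatocytes are known to lose part of their liver-specific expression and to take up genes of the cytoskeleton, adhesion, stress and wound response, which is usually called dedifferentiation. The comparison asks how far the transcripts of plated WT hepatocytes lie from those of the tissue they were taken from.

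Total counts ran from 12967740 to 17728246 in the L libraries and from 11536206 to 18850215 in the PH libraries. Levels are given as CPM (counts per 1000000) after scaling by the trimmed mean of M values (TMM), and a log2 fold change is PH minus L with its standard error (SE) from edgeR's quasi-likelihood fit. A gene is said to have risen or fallen, or to be called, where its p, adjusted by Benjamini and Hochberg for all 14932 tested genes, was below 0.05. The libraries of each group came from separate mice. A piece of liver holds several cell types, so fewer cells of a type and less RNA per cell cannot be told apart in these values.

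Liver RNA was dominated by a small number of hepatocyte transcripts, and the RNA of cultured cells was spread over many more genes. In L, 156.6 ± 28.89 genes (SD, n = 5) made up 50% of the counts. In PH it took 490.3 ± 53.33 genes (SD, n = 6; exact two-sided permutation test, p = 0.002165, the smallest that 5 against 6 libraries allow). The permutation tests treat L and PH libraries as independent, though 5 mice gave both. Albumin mRNA alone took 12.21% ± 0.5757 of the counts in L and 5.757% ± 0.7656 in PH (exact permutation p = 0.002165). The share of mRNAs encoded by the mitochondrial genome was 5.223% ± 0.9232 in L and 4.221% ± 1.252 in PH, a difference within the spread of the libraries (exact permutation p = 0.1818). The small share of mitochondrial ribosomal RNA was 0.09929% ± 0.01561 in L and 0.4469% ± 0.07925 in PH (exact permutation p = 0.002165). The libraries were depleted of ribosomal RNA, so this share also depends on how complete the depletion was. Long non-coding RNAs took 0.694% ± 0.101 and 0.7386% ± 0.1073 of the counts (exact permutation p = 0.5152).

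The PH library of mouse 544 stood apart from the other 5 PH libraries. Its log2 values deviated from the mean of the others with an SD of 0.579 across genes, against 0.2023 to 0.3452 for the other PH libraries. Mitochondrial mRNAs took 1.931% of its counts, against 3.977% to 5.528% in the rest. Neutrophil markers were higher in it than in the other PH libraries by a median of 3.72 on the log2 scale, Kupffer cell and macrophage markers by 2.15 and chemokines and cytokines by 1.92. Of the 5 tested neutrophil markers 4 averaged below 1 CPM in PH. The summed level of the 5 was 11.28 CPM in mouse 544 and 0.372 CPM at the median of the PH libraries. Stellate cell markers were higher by 1.83 and matrix genes by 1.09. Values without mouse 544 are given beside results that rest on it.

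Of the 14932 tested genes, 11299 (75.7%) were called. In PH 5596 genes were higher (37.5% of those tested) and 5703 were lower (38.2%). A change of at least 2-fold was called for 2887 higher genes (19.3%) and for 4014 lower genes (26.9%), and one of at least 10-fold for 467 higher and 1269 lower genes. The L and PH libraries did not overlap for 9084 genes (60.8%), and 10394 called genes (92.0%) moved in the called direction in all 5 mice that had both libraries. The median log2 fold change over all tested genes was 0.0084, with quartiles of -1.17 and 0.78. With scaling to total counts alone this median moved by 0.56 to the higher side, and 7959 genes were then higher and 3956 lower, a share of 66.8% higher among the called genes in place of 49.5%. Directions below are relative to the TMM scaling, and genes whose direction turns under total counts are named.

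To see what the PH libraries held besides hepatocytes, marker lists of 9 cell types were read first. Markers of the non-parenchymal cells of the sinusoid, of lymphocytes, red cells and the liver's mesothelial cover were far lower in PH than in L. Among Kupffer cell and macrophage markers 1 of 18 tested members rose and 16 fell, and their summed level went from 880 to 1093 CPM in L to 247 to 621 CPM in PH. Clec4f encodes the C-type lectin that marks resident Kupffer cells (ENSMUSG00000014542.3, chromosome 6, 83644542 to 83656187, minus strand). It stood at 125, 173, 121, 126 and 148 CPM in the L libraries of mice 544, 548, 554, 556 and 564, an order kept for all liver values below. In PH it ran from 0.0451 to 3.34 CPM (median 0.266 CPM), a log2 change of -7.11 ± 0.60 (SE, adjusted p = 1.60e-12), and the highest of these was the library of mouse 544. Without that mouse the change was -8.33, and the median of the list was -5.97 in place of -4.98. The exception of the list was Cd68, a lysosomal glycoprotein that macrophages carry in large amounts, which rose from 12.3 ± 0.858 CPM (SD, n = 5) to 288 ± 129 CPM (SD, n = 6), a change of 4.55 ± 0.49 (SE, adjusted p = 5.87e-10).

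Sinusoidal endothelial markers were also lower, and 1 of 18 tested members rose and 14 fell (median log2 fold change -2.34). Clec4g, a lectin of sinusoidal endothelium (ENSMUSG00000074491.9, chromosome 8, 3707064 to 3720651, minus strand), was even across the livers at 52.8, 52.6, 53.6, 53.8 and 48.2 CPM and lay between 0 and 0.135 CPM in PH, a change of -9.41 ± 0.36 (SE, adjusted p = 8.43e-21). The riser of this list was Pecam1, an adhesion molecule of endothelium and platelets (0.58 ± 0.24, SE, adjusted p = 0.0337), and its call was lost without mouse 544 (adjusted p = 0.217) or mouse 548 (adjusted p = 0.0812) and with mouse as a block over the 5 WT pairs (adjusted p = 0.0625). Of 17 stellate cell markers all fell (median -2.41, -3.01 without mouse 544), among them Colec11, a collectin, from 47.3 ± 4.12 CPM to 0.508 ± 0.325 CPM, and Lrat, which esterifies retinol for storage (-5.16 ± 0.49, SE, adjusted p = 3.07e-11). All 6 tested erythroid transcripts and all 6 tested mesothelial markers fell as well. Hba-a2, Hbb-bt, Upk3b and Upk1b had no count in any PH library, and the mesothelial uroplakin Upk3b was at least 198-fold lower in PH, taking a floor of 3 counts over the group. The globin genes are close copies of each other, so their single counts are uncertain. Among lymphocyte and NK cell markers 11 of 12 fell (3 with the same block), and Cd3g, Cd4 and Ms4a1 had no count in PH. Their summed level was 20.6 to 26.8 CPM in L and 1.32 to 43.3 CPM in PH, where the highest value was that of mouse 544. The riser was the chemokine Ccl5, at 0.686, 1.76, 1.58, 1.65 and 1.19 CPM in L and 1.04 to 40.6 CPM (median 3.37 CPM) in PH. Its change was 2.78 ± 0.80 (SE, adjusted p = 0.00229) with mouse 544 and 0.97 without it (adjusted p = 0.21), and the call was lost with the block (adjusted p = 0.116). Of 5 tested neutrophil markers 1 rose and 2 fell (median -1.30, and -4.81 without mouse 544), beside 37.5% higher and 38.2% lower over all genes. The riser, the collagenase Mmp8, stood at 5.52 CPM in mouse 544, and its change of 4.40 became 1.63 without that mouse (adjusted p = 0.214).

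Cholangiocytes line the bile ducts, and their markers did not move together. In this list 4 of 17 tested members rose and 6 fell, beside 37.5% higher and 38.2% lower over all genes. The median of the list was -0.47 and became 0.08 under scaling to total counts. The keratin Krt19 fell from 1.31 ± 0.586 CPM to 0.394 ± 0.175 CPM (-1.72 ± 0.53, SE, adjusted p = 0.00419) and Epcam, an epithelial adhesion molecule, from 1.17 ± 0.277 CPM to 0.217 ± 0.286 CPM (-2.30 ± 0.60, SE, adjusted p = 0.00101; -3.37 without mouse 544). Sox9, a transcription factor of duct cells that hepatocytes can also express, rose from 4.26 ± 1.21 CPM to 28.6 ± 14.4 CPM (2.74 ± 0.29, SE, adjusted p = 2.34e-10), and the summed level of the list rose from 280 to 320 CPM to 603 to 983 CPM through members such as Anxa4 (1.25) and Tm4sf4 (2.08). The osteopontin gene Spp1 was at 43.6 ± 6.48 CPM in L and at 7.06 to 161 CPM (median 11.9 CPM) in PH, with a change of -0.26 ± 0.73 (SE, adjusted p = 0.758). Without mouse 544, which held the highest value, Spp1 was lower in PH by -1.90 on the log2 scale (adjusted p = 0.0131).

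**Figure D1:**
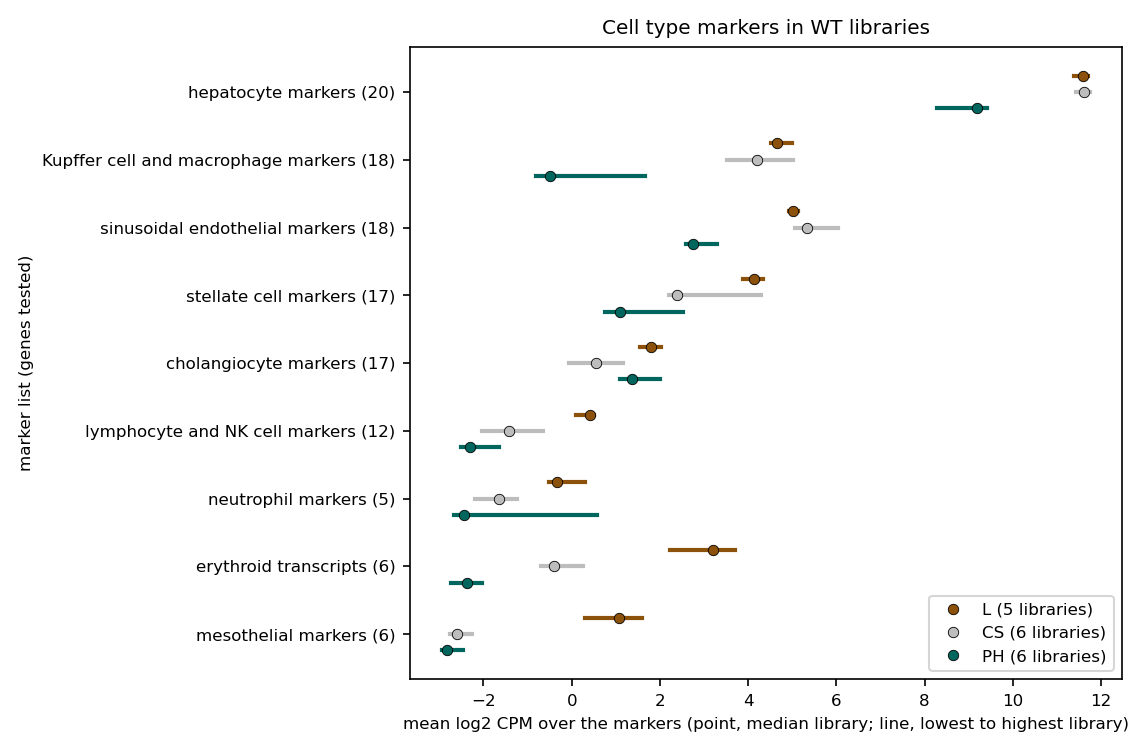
Mean log2 CPM over the markers of 9 cell types (horizontal axis) in L, CS and PH of WT mice; points are the median library, lines run from the lowest to the highest library. Hepatocyte markers stayed the most abundant list in PH, where their levels summed to 52070 to 76250 CPM, while Kupffer cell, endothelial and stellate cell markers lay below their L range.

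The hepatocyte markers of the label check fell too but stayed high. Of 20 hepatocyte markers 19 fell and 1 rose, at a median of -2.43. In the cell suspension, which shares its lobes and dissociation with PH, their median against L was 0.05, and their PH minus CS median was -2.46. Their summed level was 195700 to 239000 CPM in L and 52070 to 76250 CPM in PH, above that of all other marker lists in every library. Alb, the gene of albumin (ENSMUSG00000029368.10, chromosome 5, 90460897 to 90476602, plus strand), stood at 142960, 130790, 154070, 156050 and 127140 CPM in L and at 33837 to 53665 CPM (median 48180 CPM) in PH. Every PH library lay below every L library, at a change of -1.63 ± 0.19 (SE, adjusted p = 2.37e-09) or 3.1-fold. The riser was Hp, the haemoglobin scavenger haptoglobin and a protein of the acute phase (1.21 ± 0.20, SE, adjusted p = 2.91e-06).

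Medians of the 42 pathway lists ran from -3.69 to 3.02. The lowest medians were those of membrane carriers, pericentral, periportal and urea cycle genes, and the highest those of early transcription factors, the cytoskeleton, interferon-stimulated genes and p53 response genes. The 51 lists hold 1435 entries, and 34 of these were not tested because their counts were too low.

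**Figure D2:**
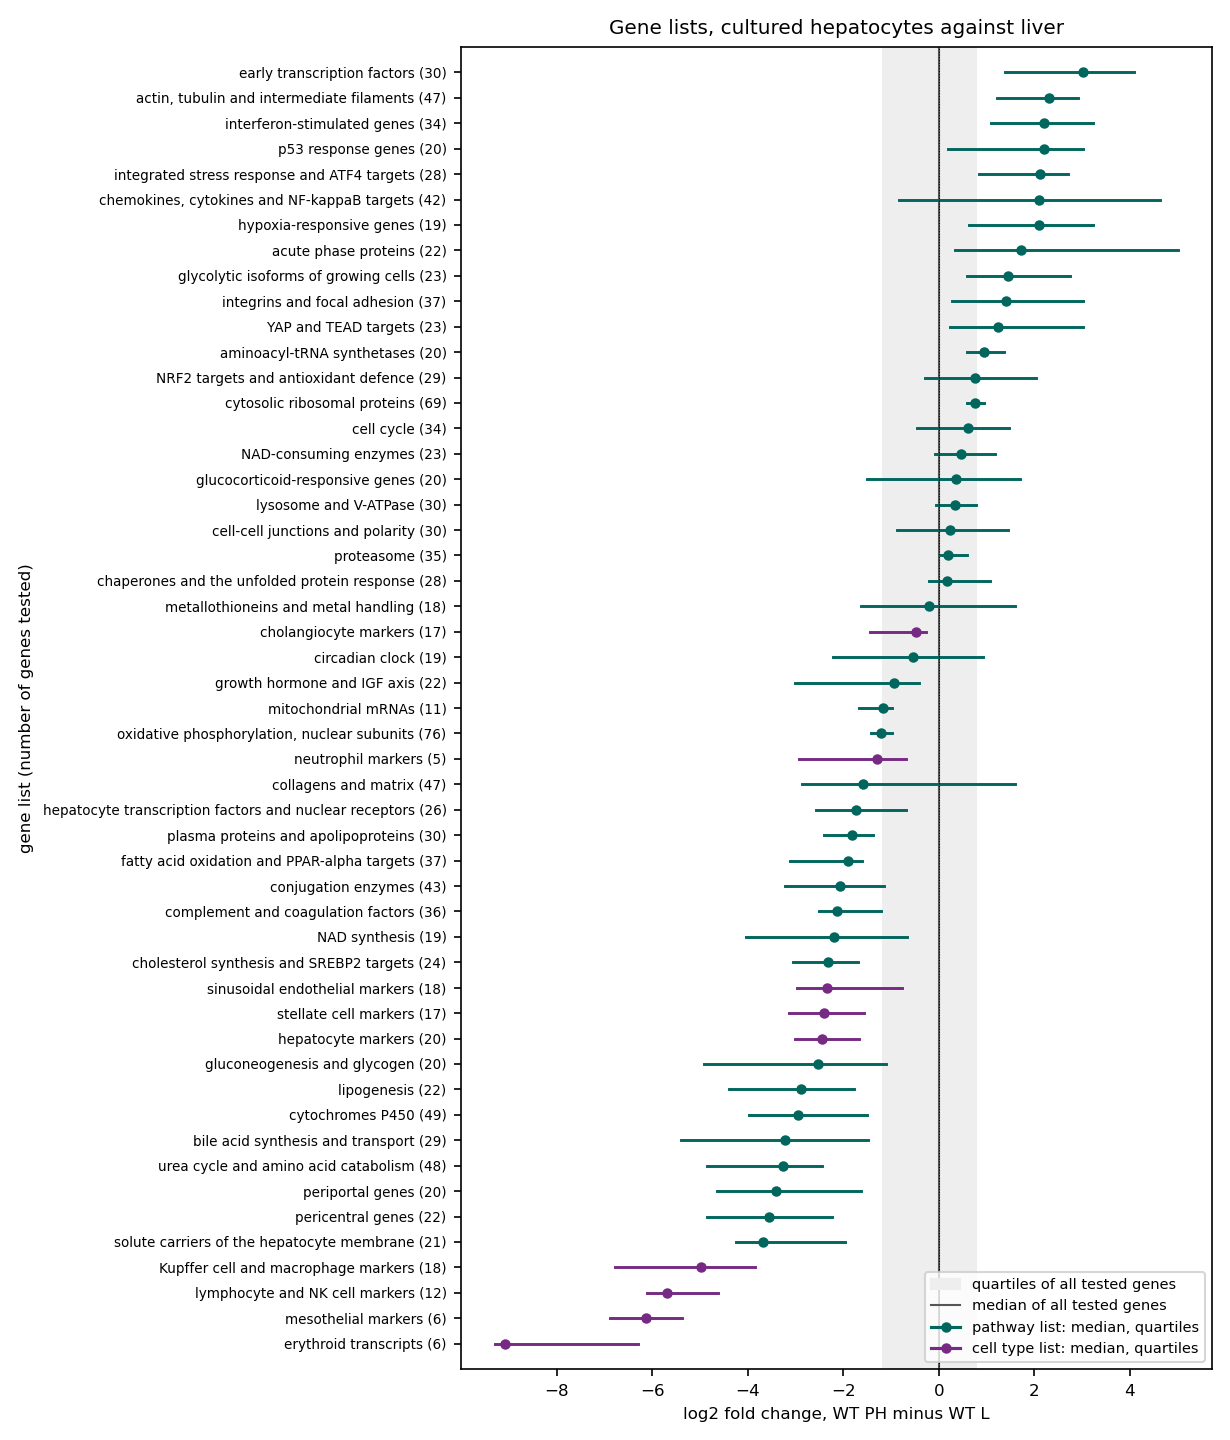
Median log2 fold change (PH minus L, horizontal axis) of each gene list, with the quartiles and the number of its tested members. The vertical line and the band are the median (0.0084) and the quartiles of all tested genes. Solute carriers of the hepatocyte membrane lie lowest among the pathway lists (-3.69) and early transcription factors highest (3.02).

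Among called genes with at least 10 CPM in the higher group, 6 of the 12 largest rises had no count in any L library. They were Gml and Gml2, close copies of each other that share reads, Hmga2, an architectural chromatin protein, Duox2, an oxidase that makes hydrogen peroxide, Npy, the gene of neuropeptide Y, and Psg22, a pregnancy-specific glycoprotein. Taking a floor of 3 counts over the L libraries, they were at least 498-, 426-, 383-, 375-, 344- and 339-fold higher in PH. Hmga2 and Psg22 were highest in mouse 544, at 58.5 and 51.5 CPM against medians of 9.64 and 8.53 CPM. Without that mouse the bounds of Hmga2, Psg22 and Npy were 157-, 139.5- and 221-fold. Pgf, a growth factor of the VEGF family, had 1 count in L and ran from 3.24 to 28.3 CPM (median 22.7 CPM) in PH, 1330 times (95% exact Poisson interval 238 to 52400, counting error only). The membrane metalloprotease Mmp24 had 2 counts in L and ran from 16.8 to 25.5 CPM (median 20.9 CPM) in PH, 696 times (95% exact Poisson interval 193 to 5750, counting error only). The L counts of Pgf and Mmp24 lay in 1 liver each (mice 548 and 554), and without that mouse the genes were at least 315- and 404-fold higher in PH, with the floor of 3 counts over the other livers.

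Sprr1a had the largest rise among genes counted in every liver library. It encodes a small proline-rich protein of the cornified envelope that epithelia make under stress (ENSMUSG00000050359.7, chromosome 3, 92483952 to 92485895, minus strand). It stood at 0.206, 0.125, 0.279, 0.301 and 0.0853 CPM in L and at 198 to 480 CPM (median 272 CPM) in PH, a change of 10.54 ± 0.86 (SE, adjusted p = 8.57e-13). All 6 PH libraries lay far above all livers. Its promoter is shown because it holds the AP-1 motif TGACTCA, the letters bound by Fos and Jun family dimers, whose members also moved. The RefSeq window of 250 bases before to 50 after the start (chr3:92485832-92486131, minus strand, GRCm38.p6, written 5′ to 3′) has 2 copies, both on the opposite strand and therefore read as the reverse complement, in capitals:
Sprr1a: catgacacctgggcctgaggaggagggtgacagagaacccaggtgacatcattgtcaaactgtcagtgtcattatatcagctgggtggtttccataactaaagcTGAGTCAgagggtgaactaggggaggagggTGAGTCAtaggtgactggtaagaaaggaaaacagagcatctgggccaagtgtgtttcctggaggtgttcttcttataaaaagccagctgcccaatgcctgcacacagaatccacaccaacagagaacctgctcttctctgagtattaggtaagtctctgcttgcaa
Of 27025 mouse promoter windows of the same length, 5.17% hold this motif on either strand, so a match is a description and not a site.

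The 12 largest falls were led by the globin Hbb-bs (-10.10) and Clec4g. They went on with Hba-a1, the succinate receptor Sucnr1 (-8.76), Cyp7a1, the acyl-CoA thioesterase Acot3 (-8.56), the steroid dehydrogenase Hsd3b2 (-8.33), the macrophage genes Cd5l (-8.14) and Vsig4 (-7.94), Cd300lg (-8.02), Keg1 (-7.77) and Nlrp6 (-7.67). Without 1 mouse the changes of Vsig4 and Cd5l became -9.27 and -8.74 (544), that of Cd300lg -8.81 (554), and those of Hbb-bs and Hsd3b2 -10.77 and -9.07 (564). Hba-a1 had 1 count in PH, in mouse 564, and without that mouse it was at least 407.5-fold lower. By absolute level, the 8 largest falls in mean CPM included those of Alb, the desaturase Scd1, Apoe, Ahsg, mt-Cytb, Cyp2e1 and Ttr. The 8 largest rises were those of Lcn2, Hpx, Cp, Hp, the ferritin heavy chain Fth1, Serpina3n and the keratin pair Krt8 and Krt18.

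Transcription factors that define the hepatocyte were mostly lower in PH, but by very different amounts. Of 26 tested factors and nuclear receptors 4 rose and 20 fell, at a median of -1.73. Cebpa, the C/EBP factor of the resting hepatocyte, stood at 330, 498, 416, 386 and 415 CPM in L and at 27.2 to 43.7 CPM (median 33.2 CPM) in PH, a change of -3.60 ± 0.17 (SE, adjusted p = 1.01e-18) with no overlap. Hnf4a, the central nuclear receptor of hepatocyte identity, fell less, from 627, 547, 691, 651 and 582 CPM to 224 to 481 CPM (median 425 CPM), a change of -0.63 ± 0.17 (SE, adjusted p = 9.19e-04). Its groups did not overlap either, the lowest PH value was that of mouse 544, and the call was lost under total counts (-0.09, adjusted p = 0.576). Nr1i3, the xenobiotic receptor CAR, fell from 435, 420, 488, 205 and 498 CPM to 1.31 to 4.51 CPM (median 3.24 CPM), a change of -7.01 ± 0.39 (SE, adjusted p = 5.53e-17) or 129-fold. Nr0b2, the bile acid repressor SHP, fell by 5.85 on the log2 scale, the oestrogen receptor Esr1 changed by -4.40 and Cux2, a factor known as female-biased in mouse liver, by -7.16. Foxa2, a pioneer factor, was at 31.2 ± 6.35 CPM in L and 26.4 ± 3.04 CPM in PH (adjusted p = 0.127; 0.00483 without mouse 554, where it was lower). The risers included Cebpd (3.50 ± 0.42, SE, adjusted p = 4.97e-09) and Cebpb (0.78 ± 0.27, SE, adjusted p = 0.00971), the C/EBP factors of the acute phase, and the repressor Bcl6 (1.77).

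Secreted plasma proteins fell and acute phase proteins rose. Of 30 plasma proteins and apolipoproteins 27 fell and 2 rose (median -1.82), and of 36 complement and coagulation factors 34 fell and 1 rose (median -2.13). Ttr, the thyroid hormone carrier transthyretin, fell from 6941 ± 645 CPM to 980 ± 127 CPM (-2.82 ± 0.18, SE, adjusted p = 1.67e-15). Apoe fell from 17257 ± 1783 CPM to 3690 ± 279 CPM, and Klkb1, the gene of plasma prekallikrein, changed by -5.48. The risers were the haem carrier Hpx (1.47 ± 0.17, SE, adjusted p = 1.58e-09), Apoa4 (1.17) and complement factor B (Cfb, 0.79 ± 0.15, SE, adjusted p = 1.77e-05).

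Of 22 acute phase genes 16 rose and 3 fell (median 1.73), beside 37.5% higher and 38.2% lower over all genes. Lcn2, the siderophore-binding protein lipocalin 2 (ENSMUSG00000026822.14, chromosome 2, 32384633 to 32388252, minus strand), stood at 16.1, 16.1, 30.1, 49 and 15.1 CPM in L and at 7577 to 13047 CPM (median 8599 CPM) in PH. This was a change of 8.51 ± 0.80 (SE, adjusted p = 1.98e-11), or 364-fold, and the groups lay far apart. Orm2, an orosomucoid of the plasma (ENSMUSG00000061540.3, chromosome 4, 63362449 to 63365878, plus strand), rose from 13.8, 8.9, 12.1, 20.1 and 5.29 CPM to 372 to 871 CPM (median 666 CPM), a change of 5.73 ± 0.61 (SE, adjusted p = 4.01e-10); close paralogs may share its reads. Saa3, a serum amyloid A protein, rose by 9.0 ± 1.0 (SE, adjusted p = 9.81e-10), with 5282 CPM in mouse 544 against a median of 726 CPM, and by 7.91 without that mouse. The endotoxin coreceptor Cd14 rose by 5.90 ± 0.64 (SE, adjusted p = 5.30e-10) and ceruloplasmin (Cp) by 1.78 ± 0.17 (SE, adjusted p = 3.27e-11). Hepcidin (Hamp), the hormone that lowers iron export, was the main member to fall, from 868, 1445, 860, 1140 and 1068 CPM to 13 to 336 CPM (median 25.4 CPM), a change of -3.86 ± 0.69 (SE, adjusted p = 7.68e-06) that became -5.71 without mouse 544, the highest PH library. Of the 22 acute phase genes 16 (72.7%) had a promoter window, and the others were not searched. The Orm2 promoter is shown as the one window of this list with a C/EBP palindrome TTGCGCAA (in capitals), a motif found in 0.185% of all windows (chr4:63362199-63362498, plus strand, GRCm38.p6, RefSeq):
Orm2: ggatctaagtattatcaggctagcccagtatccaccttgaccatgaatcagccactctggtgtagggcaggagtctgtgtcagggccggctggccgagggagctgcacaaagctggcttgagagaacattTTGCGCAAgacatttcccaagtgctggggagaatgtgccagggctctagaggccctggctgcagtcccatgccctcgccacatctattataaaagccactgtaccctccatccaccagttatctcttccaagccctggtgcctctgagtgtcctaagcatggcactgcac

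**Figure D3:**
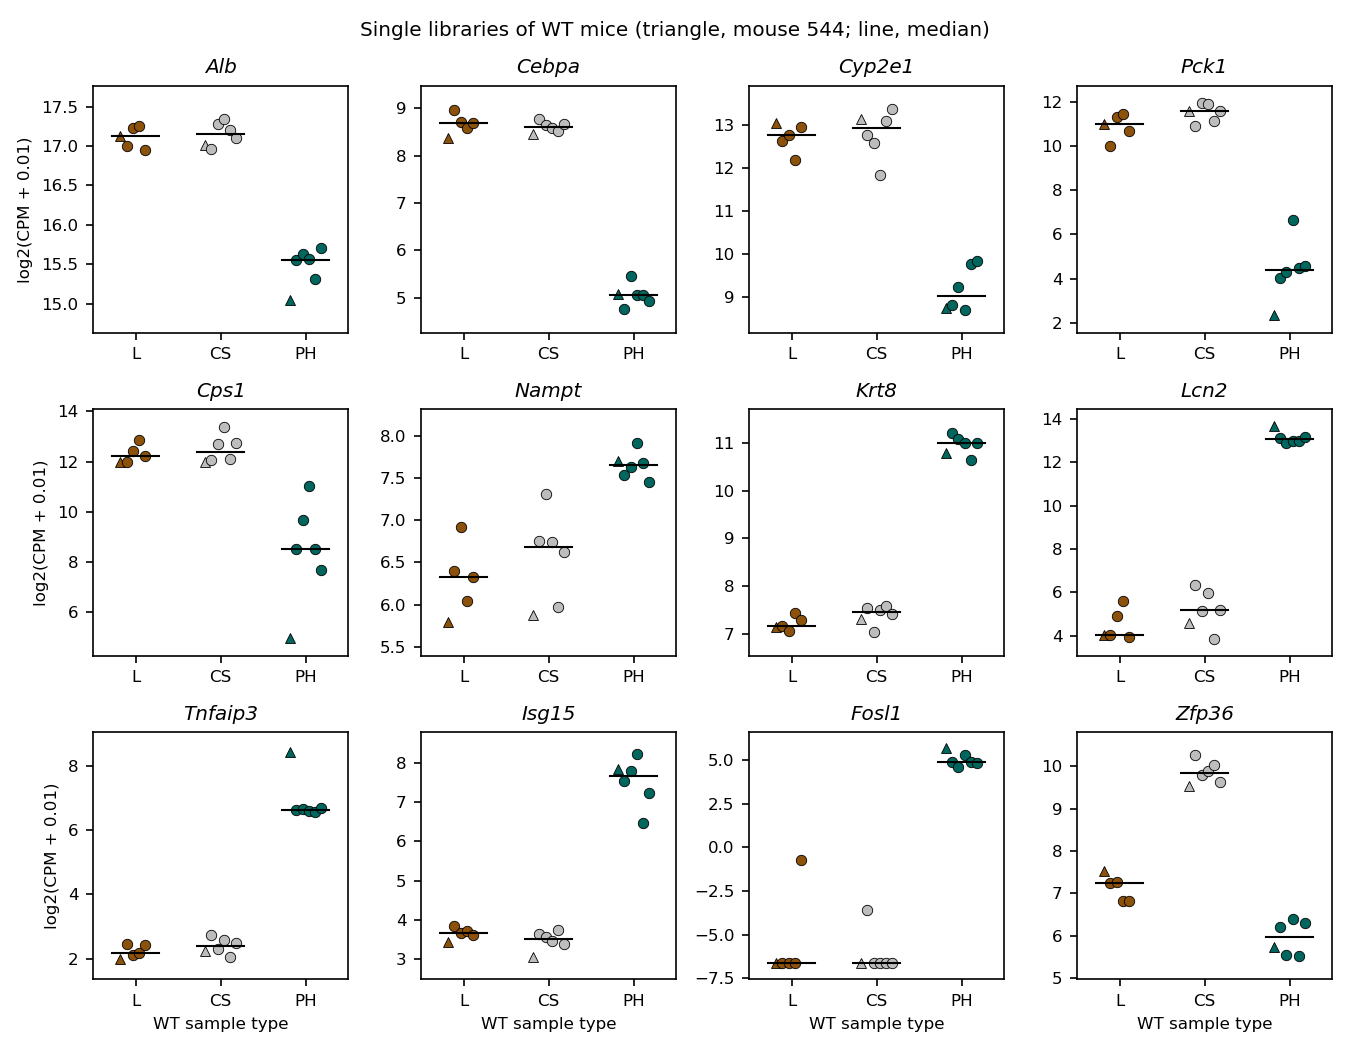
CPM of 12 genes in the WT L, CS and PH libraries, plotted as log2(CPM + 0.01); each point is a library, lines are medians, triangles mark mouse 544. Alb, Cebpa, Cyp2e1, Pck1 and Cps1 lie lower in PH than in L, Nampt, Krt8, Lcn2, Tnfaip3, Isg15 and Fosl1 higher, and Zfp36 is highest in CS.

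Genes of drug and bile acid metabolism were among the lowest groups in PH. Of 49 cytochromes P450 43 fell and 3 rose (median -2.94). Cyp2e1, the ethanol-inducible P450 of the pericentral zone (ENSMUSG00000025479.9, chromosome 7, 140763739 to 140774987, plus strand), stood at 8400, 6309, 6928, 4703 and 7992 CPM in L and at 419 to 918 CPM (median 528 CPM) in PH, a change of -3.48 ± 0.38 (SE, adjusted p = 6.05e-10) without overlap. Cyp2b10, known as a target of CAR, went the other way, from 2.67, 2.88, 2.32, 6.76 and 2.05 CPM to 8.02 to 512 CPM (median 94.1 CPM), a change of 5.58 ± 0.76 (SE, adjusted p = 5.87e-08) with a wide spread over the PH libraries and its lowest value in mouse 544. The retinoic acid hydroxylase Cyp26a1 (2.85) rose as well, and so did the P450 reductase Por (0.88 ± 0.34, SE, adjusted p = 0.0196), whose call was lost without mouse 556 (adjusted p = 0.0688). Cyp2a5 was not called (0.14 ± 0.57, SE, adjusted p = 0.831). Of 43 conjugation enzymes 34 fell and 5 rose (median -2.07), the largest rise being that of the glutathione transferase Gsta1, which had 3 counts over the L libraries and ran from 27.4 to 68.5 CPM (median 55.1 CPM) in PH, 1120 times (95% exact Poisson interval 382 to 5410, counting error only). Counts of Cyp2, Ugt, Sult and Gst genes are uncertain where close copies share reads.

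Of 29 genes of bile acid synthesis and transport 24 fell and 2 rose (24 and 5 under total counts, median -3.21). Cyp7a1, the rate-limiting enzyme of bile acid synthesis (ENSMUSG00000028240.2, chromosome 4, 6265612 to 6275633, minus strand), stood at 44.6, 95.3, 59.4, 25.7 and 45.5 CPM in L and at 0 to 0.485 CPM (median 0.0902 CPM) in PH, a change of -8.70 ± 0.75 (SE, adjusted p = 2.74e-12) that became -9.51 without mouse 564. The uptake carrier of bile acids, Slc10a1, fell from 1241 ± 251 CPM to 12.2 ± 5.51 CPM (-6.67 ± 0.31, SE, adjusted p = 5.46e-19, 102-fold), and the export pump Abcb11 from 838 ± 141 CPM to 27.7 ± 7.58 CPM (-4.92 ± 0.20, SE, adjusted p = 3.20e-20). The co-receptor Klb changed by -6.33, while its partner Fgfr4 was not called (0.15 ± 0.21, SE, adjusted p = 0.535). The risers were the basolateral exporters Abcc3 (1.51 ± 0.22, SE, adjusted p = 2.14e-07) and Abcc4 (2.13 ± 0.35, SE, adjusted p = 1.68e-06). Of 21 solute carriers of the hepatocyte membrane 18 fell and 2 rose, at a median of -3.69.

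Hepatocytes differ along the axis from portal to central vein, and genes of both zones were lower in PH. Of 22 pericentral genes 20 fell and 1 rose (median -3.55), and of 20 periportal genes 17 fell and 1 rose (median -3.41). Glul, the glutamine synthetase of the cells next to the central vein, fell from 1447 ± 102 CPM to 68.7 ± 11.7 CPM (-4.40 ± 0.23, SE, adjusted p = 1.94e-17), and the Wnt antagonist Notum changed by -7.13. The pericentral riser was Ahr, the aryl hydrocarbon receptor (0.67 ± 0.21, SE, adjusted p = 0.00451), and the periportal riser was Cdh1, the gene of E-cadherin (1.05 ± 0.24, SE, adjusted p = 2.59e-04).

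Genes that handle nitrogen and glucose in the liver fell, and genes for the forms of glycolytic enzymes found in growing cells rose. Of 48 genes of the urea cycle and amino acid catabolism 45 fell and none rose (median -3.26), against 38.2% lower over all genes. Cps1, which makes carbamoyl phosphate at the entry of the urea cycle (ENSMUSG00000025991.8, chromosome 1, 67123026 to 67231259, plus strand), stood at 4081, 4060, 5446, 7490 and 4788 CPM in L and at 31.3 to 2087 CPM (median 362 CPM) in PH, a change of -3.00 ± 0.61 (SE, adjusted p = 5.20e-05). Its lowest PH value was that of mouse 544, its change was -3.69 without mouse 556, and it was among the 5 most variable genes of PH. Ass1, the next but one enzyme of the cycle, fell from 1824 ± 387 CPM to 127 ± 46.5 CPM (-3.85 ± 0.27, SE, adjusted p = 2.51e-14). Of 20 genes of gluconeogenesis and glycogen 16 fell and 2 rose (median -2.52). Pck1, the cytosolic PEP carboxykinase (ENSMUSG00000027513.11, chromosome 2, 173153048 to 173159273, plus strand), fell from 2000, 1014, 2486, 2780 and 1618 CPM to 5.04 to 99.3 CPM (median 20.9 CPM), a change of -6.00 ± 0.64 (SE, adjusted p = 4.28e-10) or 63.8-fold without overlap (-6.69 without mouse 556). The mitochondrial form Pck2 rose (1.43 ± 0.23, SE, adjusted p = 1.64e-06), as did Igfbp1 (2.49 ± 0.53, SE, adjusted p = 9.99e-05). Fbp1, the phosphatase of gluconeogenesis, fell from 1451 ± 149 CPM to 49 ± 10.6 CPM.

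Of 23 glycolytic genes of growing cells 18 rose and 4 fell (median 1.46). Pkm, the pyruvate kinase of most tissues, rose from 15.8, 15.1, 13.4, 15.9 and 16.8 CPM to 321 to 647 CPM (median 389 CPM), a change of 4.81 ± 0.30 (SE, adjusted p = 1.38e-15), and Slc2a1, the glucose carrier GLUT1, from 10.2, 9.91, 7.9, 14 and 9.21 CPM to 129 to 223 CPM (median 153 CPM), a change of 4.01 ± 0.21 (SE, adjusted p = 8.21e-18). In both every PH library lay far above every L library. Within 2 pairs of a liver form and a second form, chosen after their values were seen and given with no test, levels per kilobase of exon could be set side by side. The median log2 ratio of the liver form Pklr to Pkm was 6.62 in L and 0.02 in PH, and that of the liver carrier Slc2a2 to Slc2a1 was 5.41 in L and -3.34 in PH.

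Lipid metabolism followed the liver-specific side. Of 37 genes of fatty acid oxidation and PPAR-alpha targets 33 fell and 1 rose (median -1.89), with the kinase Pdk4 as the riser (1.54 ± 0.56, SE, adjusted p = 0.0132; not called without mouse 548, 554 or 556, adjusted p up to 0.0614). Of 22 lipogenesis genes 20 fell and 1 rose (median -2.89), the riser being the lipid droplet protein Cidec (2.40 ± 0.53, SE, adjusted p = 1.56e-04). Scd1, the delta-9 desaturase, fell from 11438, 18994, 8632, 35013 and 15104 CPM to 403 to 1916 CPM (median 1084 CPM), a change of -3.97 ± 0.58 (SE, adjusted p = 2.68e-07). Of 24 genes of cholesterol synthesis and SREBP2 targets 21 fell and none rose (median -2.32), and the members not called included Sqle, the squalene epoxidase (-0.44 ± 0.35, SE, adjusted p = 0.245), which was lower with mouse as a block over the WT pairs (-0.53, adjusted p = 0.0187).

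Transcripts of the respiratory chain fell by smaller amounts. Of 76 nuclear genes for subunits of oxidative phosphorylation 75 fell (median -1.20), and the remaining one, cytochrome c (Cycs), was not called (0.15 ± 0.15, SE, adjusted p = 0.352). The complex I subunits Ndufb10 (-2.01 ± 0.13, SE, adjusted p = 1.27e-15) and Ndufs8 (-1.60 ± 0.10, SE, adjusted p = 5.23e-16) are examples. Of 11 mitochondrially encoded mRNAs 10 fell (median -1.16), but 4 under total counts (median -0.61) and 5 with mouse as a block over the 5 WT pairs. In L and in PH alike, 3 of the 11 averaged below 1 CPM. mt-Co1 was not called (-0.41 ± 0.21, SE, adjusted p = 0.0705), though it passed without mouse 548 (adjusted p = 0.0444) or 564 (adjusted p = 0.0419). mt-Cytb, the cytochrome b of complex III, stood at 14431, 10359, 17887, 14723 and 10491 CPM in L and at 946 to 5786 CPM (median 3834 CPM) in PH, a change of -1.86 ± 0.27 (SE, adjusted p = 1.79e-07). The lowest PH value was that of mouse 544, and no PH library reached the lowest liver.

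NAD is made from nicotinamide by Nampt, from nicotinic acid by Naprt and from tryptophan by the kynurenine route, and these routes moved apart. Of 19 genes of NAD synthesis 15 fell and 2 rose (median -2.19). Nampt (ENSMUSG00000020572.8, chromosome 12, 32819545 to 32853349, plus strand) stood at 55.6, 84.4, 121, 65.7 and 80.1 CPM in L and at 175 to 240 CPM (median 201 CPM) in PH, a change of 1.31 ± 0.21 (SE, adjusted p = 1.74e-06), and its groups did not overlap. Naprt fell from 122, 144, 120, 101 and 141 CPM to 13.9 to 18.4 CPM (median 16.7 CPM), a change of -2.94 ± 0.17 (SE, adjusted p = 9.06e-17). Of the kynurenine route, Haao fell from 615 ± 42.6 CPM to 7.59 ± 2.63 CPM (-6.35 ± 0.29, SE, adjusted p = 6.45e-19, 81.4-fold), Kmo from 290 ± 30.6 CPM to 11.8 ± 3.03 CPM (-4.62 ± 0.18, SE, adjusted p = 1.55e-20), and Afmid (-4.27) and Qprt (-2.63) changed in the same direction. The second riser was the mitochondrial NAD carrier Slc25a51 (0.53 ± 0.21, SE, adjusted p = 0.0192), whose call was lost without mouse 554 (adjusted p = 0.056) or 556 (adjusted p = 0.11) and with mouse as a block over the WT pairs (adjusted p = 0.0585). NAD kinase (Nadk) was not called (-0.08 ± 0.17, SE, adjusted p = 0.668), was highest in mouse 544 at 477 CPM, and was lower by 0.38 on the log2 scale without that mouse (adjusted p = 0.023), but higher under total counts (0.47, adjusted p = 0.0141). Of 23 NAD-consuming enzymes 13 rose and 6 fell (median 0.47), beside 37.5% higher and 38.2% lower over all genes. The mitochondrial deacylase Sirt3 fell from 113 ± 4.83 CPM to 9.03 ± 1.22 CPM (-3.64 ± 0.16, SE, adjusted p = 1.53e-19), Sirt5 (-1.56) and Sirt7 (-0.96) fell less, and Sirt1 was not called (0.22 ± 0.13, SE, adjusted p = 0.112; adjusted p = 0.031 without mouse 564). The ADP-ribosyltransferases Parp14 (2.86 ± 0.15, SE, adjusted p = 1.68e-17), Parp4 (1.93), Parp12 (1.76) and Parp3 (1.72) rose.

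Genes of the cytoskeleton and of adhesion to the substrate rose. Of 47 genes of actin, tubulin and intermediate filaments 39 rose and 6 fell (40 and 2 under total counts, median 2.32), against 37.5% higher over all genes. Krt8, the type II keratin of hepatocytes (ENSMUSG00000049382.10, chromosome 15, 101996698 to 102004482, minus strand), rose from 143, 145, 134, 173 and 157 CPM to 1597 to 2339 CPM (median 2036 CPM), a change of 3.73 ± 0.20 (SE, adjusted p = 2.41e-17), and its partner Krt18 rose by 3.48 ± 0.19 (SE, adjusted p = 5.48e-17). Tubb6, a beta-tubulin, rose from 5.42, 6.21, 6.04, 7.66 and 5.55 CPM to 232 to 333 CPM (median 268 CPM), a change of 5.47 ± 0.29 (SE, adjusted p = 2.43e-17) or 44.3-fold. Vim, the vimentin of mesenchymal cells, was at 20.4, 21.9, 18.1, 19.1 and 31.6 CPM in L and 7.27 to 48.2 CPM (median 26.9 CPM) in PH, overlapping and not called (0.27 ± 0.37, SE, adjusted p = 0.516), and Acta2, the smooth muscle actin, fell from 0.96 ± 0.473 CPM to 0.209 ± 0.217 CPM (-2.08 ± 0.86, SE, adjusted p = 0.0296). The Acta2 call was lost without any of mice 548, 554, 556 and 564 (adjusted p up to 0.117) and under total counts (adjusted p = 0.11). Of 37 integrins and focal adhesion genes 27 rose and 7 fell (median 1.41). The integrin chain Itgav rose by 2.75 ± 0.15 (SE, adjusted p = 2.96e-17) and the focal adhesion protein Tes by 6.53 ± 0.36 (SE, adjusted p = 4.00e-17), while caveolin 1 (Cav1, -4.24; -4.99 without mouse 544) and Fhl1 (-4.18) fell.

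Junctions moved in both directions, with 15 of 30 genes higher and 11 lower (median 0.24), beside 37.5% higher and 38.2% lower over all genes. Under total counts 18 of the 30 were higher and 7 lower. The gap junction genes of hepatocytes, Gjb1 (-4.06 ± 0.32, SE, adjusted p = 4.14e-13) and Gjb2 (-3.06 ± 0.27, SE, adjusted p = 5.98e-12), fell, while E-cadherin rose and N-cadherin (Cdh2) was not called (-0.12 ± 0.11, SE, adjusted p = 0.325; 0.43 under total counts, adjusted p = 0.00308). Of 47 collagens and matrix genes 28 fell and 13 rose (median -1.59), among the fallers Lum (-3.13; -3.92 without mouse 544), a proteoglycan that is also in the stellate cell list. The transglutaminase Tgm2 rose by 3.42 ± 0.20 (SE, adjusted p = 3.08e-16). Of 23 targets and partners of the mechanosensitive coactivator YAP 16 rose and 5 fell (median 1.23), or 18 and 3 under total counts. Ccn2 (CTGF), a classical YAP target, rose from 3.84, 2.63, 8.17, 4.96 and 4.01 CPM to 60.2 to 203 CPM (median 68.9 CPM), a change of 4.47 ± 0.48 (SE, adjusted p = 4.88e-10) without overlap. Axl fell by 1.61, and by 2.40 without mouse 544.

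Early response transcription factors, which cells switch on within minutes of a stimulus, had the highest median of the pathway lists (3.02), with 24 of 30 higher and 4 lower. The cell suspension already stood above liver for 19 of them, at a median of 1.85, against 3.5% of all genes called between CS and L. The CS and PH values use the same liver libraries, so they are given side by side only. Jun was at 12.9 ± 7.45 CPM in L, 634 ± 169 CPM in CS and 84.7 ± 10.4 CPM in PH, and Fos at 1.58 ± 0.823 CPM, 235 ± 64.9 CPM and 27.5 ± 17.9 CPM; both were chosen after their values were seen. Zfp36, which destabilises cytokine mRNAs, stood at 185, 150, 153, 114 and 112 CPM in L, at 938 ± 178 CPM in CS and at 45.5 to 84.1 CPM (median 63.3 CPM) in PH. It was above liver in CS (2.72 ± 0.24, adjusted p = 9.64e-10) and below it in PH (-1.17 ± 0.22, SE, adjusted p = 1.46e-05). Klf10 had the same order, with CS minus L at 1.18 ± 0.29 (adjusted p = 0.0119) and PH minus L at -3.11 ± 0.30 (SE, adjusted p = 4.01e-11). A second pattern was high in PH alone among the group means. Fosl1, the AP-1 factor Fra-1, had no count in 4 L libraries and 0.597 CPM in that of mouse 564, a mean of 0.0122 CPM in CS, and 24.7 to 51.7 CPM (median 29.8 CPM) in PH, a change of 8.22 ± 0.52 (SE, adjusted p = 1.53e-15). Without mouse 564 it was at least 642-fold higher in PH. Klf6 was at 18.4 ± 3.19 CPM in L, 28.6 ± 8.34 CPM in CS (adjusted p = 0.21 against L) and 433 ± 89.7 CPM in PH. Myc rose from 2.54, 2.63, 1.67, 4.58 and 7.42 CPM in L to 129 to 182 CPM (median 146 CPM) in PH, a change of 5.34 ± 0.51 (SE, adjusted p = 2.65e-11), with CS at 12.2 ± 11.5 CPM.

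Stress pathways rose to different extents. Of 28 genes of the integrated stress response 23 rose and 2 fell (median 2.11). Asparagine synthetase (Asns) rose from 0.977 ± 0.597 CPM to 28.3 ± 8.54 CPM (4.84 ± 0.50, SE, adjusted p = 1.76e-10) and the serine synthesis enzyme Psat1 by 5.00 ± 0.51 (SE, adjusted p = 1.53e-10) (5.66 without mouse 556), while the hormone Fgf21 fell from 7.97 ± 3.78 CPM to 0.288 ± 0.216 CPM (-4.76 ± 0.65, SE, adjusted p = 6.74e-08; -5.37 without mouse 556). Of 26 list members with a promoter window 3 (11.5%) held the ATF4 composite motif TGATGCAAT on either strand, against 0.207% of all windows. Fgf21, which fell, is among the 3. The list was chosen as known ATF4 targets, so this share says nothing about why members rose. Of 20 p53 response genes 14 rose and 2 fell (median 2.20), with the death receptor Tnfrsf10b at 6.35 ± 0.42 (SE, adjusted p = 5.38e-15), Zmat3 at 3.01 and the p53 ligase Mdm2 at 1.89 ± 0.13 (SE, adjusted p = 9.66e-15). Of 19 hypoxia-responsive genes 14 rose and 1 fell (median 2.10), with Adm (5.04) and the collagen prolyl hydroxylase P4ha2 (4.94 ± 0.24, SE, adjusted p = 1.33e-18) high and Vegfa not called (0.04 ± 0.18, SE, adjusted p = 0.833). Of 29 NRF2 targets and antioxidant genes 17 rose and 7 fell (median 0.77), or 20 and 3 under total counts. With TMM, 37.5% of all genes were higher and 38.2% lower. Hmox1, which degrades haem, rose by 3.37 ± 0.30 (SE, adjusted p = 5.54e-12) and the cystine carrier Slc7a11, with 2 counts in L, both in mouse 556, ran from 5.54 to 15.3 CPM (median 6.51 CPM) in PH, 282 times (95% exact Poisson interval 78 to 2330, counting error only). Without that mouse it was at least 154-fold higher. Catalase (Cat, -2.38) fell. The antioxidant element TGACNNNGC was in 7 of 25 windows of this list (28%) and in 12.5% of all windows. The list was chosen as known NRF2 targets and antioxidant genes, so this share says nothing about why members rose. Some of the 7 fell or were not called.

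Chaperones and the unfolded protein response moved in both directions, with 12 of 28 higher and 6 lower (median 0.17). Over all genes 37.5% were higher and 38.2% lower. Under total counts 21 of the 28 were higher and 3 lower. The cytosolic chaperones Hspb1 (4.82 ± 0.33, SE, adjusted p = 1.23e-14) and Hsp90aa1 (2.85) rose, and the endoplasmic reticulum proteins Pdia4 (-1.02), Dnajc3 (-0.77) and Herpud1 (-1.28) fell. Of 18 metallothionein and metal handling genes 7 rose and 6 fell, near the shares over all genes. Their median of -0.20 became 0.35 under total counts. Mt2 rose from 46.2 ± 21 CPM to 985 ± 179 CPM (4.41 ± 0.44, SE, adjusted p = 9.50e-11), and Mt1 by 3.19 ± 0.31 (SE, adjusted p = 3.82e-11). Of 20 glucocorticoid-responsive genes 7 rose and 9 fell (median 0.37), near the shares over all genes. Under total counts 11 rose and 6 fell (median 0.91). The culture medium held the glucocorticoid dexamethasone, whose part in these changes was not tested.

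Cell cycle genes did not move as a group: 16 of 34 rose and 6 fell (median 0.61), beside 37.5% higher and 38.2% lower over all genes. Under total counts 19 of the 34 rose and 3 fell. Mcm6, a subunit of the replicative helicase, rose from 5.35, 6.9, 6.41, 5.41 and 4.52 CPM to 61.2 to 82 CPM (median 70.3 CPM), a change of 3.63 ± 0.42 (SE, adjusted p = 2.37e-09). Ccnd1, the G1 cyclin D1, fell from 165, 210, 107, 50.1 and 153 CPM to 2.41 to 19.8 CPM (median 12.8 CPM), a change of -3.51 ± 0.45 (SE, adjusted p = 2.37e-08). The proliferation marker Mki67 fell from 3.19 ± 1.73 CPM to 0.142 ± 0.213 CPM (-4.28 ± 1.13, SE, adjusted p = 0.00103), and by 5.68 without mouse 544.

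Genes of chemokines, cytokines and the NF-kappaB response rose, and the size depended on mouse 544. Of 42 genes 28 rose and 9 fell (median 2.10), and without mouse 544 there were 21 higher and 11 lower of 42 (median 1.39). In its PH library 41 of the 42 lay above the mean of the other PH libraries. Tnfaip3, the ubiquitin-editing inhibitor A20 (ENSMUSG00000019850.11, chromosome 10, 19000910 to 19015657, minus strand), rose from 3.98, 5.52, 4.37, 4.51 and 5.38 CPM to 94.9 to 340 CPM (median 99 CPM), a change of 4.87 ± 0.35 (SE, adjusted p = 3.94e-14). Its highest PH value was that of mouse 544 and the other 5 PH libraries lay close to the median. Cxcl3, a neutrophil chemokine (ENSMUSG00000029379.10, chromosome 5, 90786103 to 90789600, plus strand), had 1 count over the L libraries and ran from 0.867 to 145 CPM (median 1.51 CPM) in PH, where 145 CPM belonged to mouse 544. Its fitted change was 10.11 ± 2.05 (SE, adjusted p = 4.59e-05) and became 5.68 without that mouse (adjusted p = 0.00598). Its L count was in mouse 556, and without that mouse it was at least 532-fold higher in PH. Cxcl5 had 101 CPM in mouse 544 against a median of 0.786 CPM, and its call was lost without that mouse (adjusted p = 0.0703). Icam1 (3.30 ± 0.20, SE, adjusted p = 4.03e-16), Relb (3.96 ± 0.31, SE, adjusted p = 2.45e-13) and Nfkb2 (3.82 ± 0.15, SE, adjusted p = 1.55e-20) rose, and Cxcl12 (-4.24), Il15 (-2.55) and Il18 (-2.27) fell.

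The promoters of Tnfaip3 (chr10:19015361-19015660, minus strand) and Cxcl3 (chr5:90785851-90786150, plus strand) are shown because each holds the NF-kappaB motif (GGG and, after any 2 bases, TTTCC), which 1.62% of all windows hold on either strand (GRCm38.p6, RefSeq, motif or its reverse complement in capitals):
Tnfaip3: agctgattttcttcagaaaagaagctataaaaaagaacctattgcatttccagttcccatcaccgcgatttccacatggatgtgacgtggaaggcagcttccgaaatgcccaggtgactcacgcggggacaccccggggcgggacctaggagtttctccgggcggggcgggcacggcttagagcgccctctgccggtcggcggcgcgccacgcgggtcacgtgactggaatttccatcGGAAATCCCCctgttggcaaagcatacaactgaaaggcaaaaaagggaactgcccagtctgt
Cxcl3: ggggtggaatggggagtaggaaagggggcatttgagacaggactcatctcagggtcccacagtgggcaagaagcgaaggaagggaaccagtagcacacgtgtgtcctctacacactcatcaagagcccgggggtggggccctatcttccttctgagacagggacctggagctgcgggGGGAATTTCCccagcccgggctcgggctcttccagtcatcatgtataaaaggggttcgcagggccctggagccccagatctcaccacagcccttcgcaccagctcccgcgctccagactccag

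Interferon-stimulated genes were higher in PH. Of 34 genes 30 rose and none fell (median 2.21; 30 higher and 1 lower of 34 without mouse 544). Isg15, a ubiquitin-like modifier, rose from 10.8, 14.5, 12.7, 13.2 and 12.2 CPM to 89.1 to 298 CPM (median 205 CPM), a change of 3.95 ± 0.25 (SE, adjusted p = 1.58e-15). Oasl1 (3.31 ± 0.20, SE, adjusted p = 2.69e-16), Ifi44 (3.71 ± 0.24, SE, adjusted p = 1.90e-15) and the class I molecule H2-D1 (1.58 ± 0.10, SE, adjusted p = 1.86e-15) rose too, and the H2 genes share reads with close copies. Irf1 (0.04 ± 0.12, SE, adjusted p = 0.785), a transcription factor of the pathway, was not called.

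**Figure D4:**
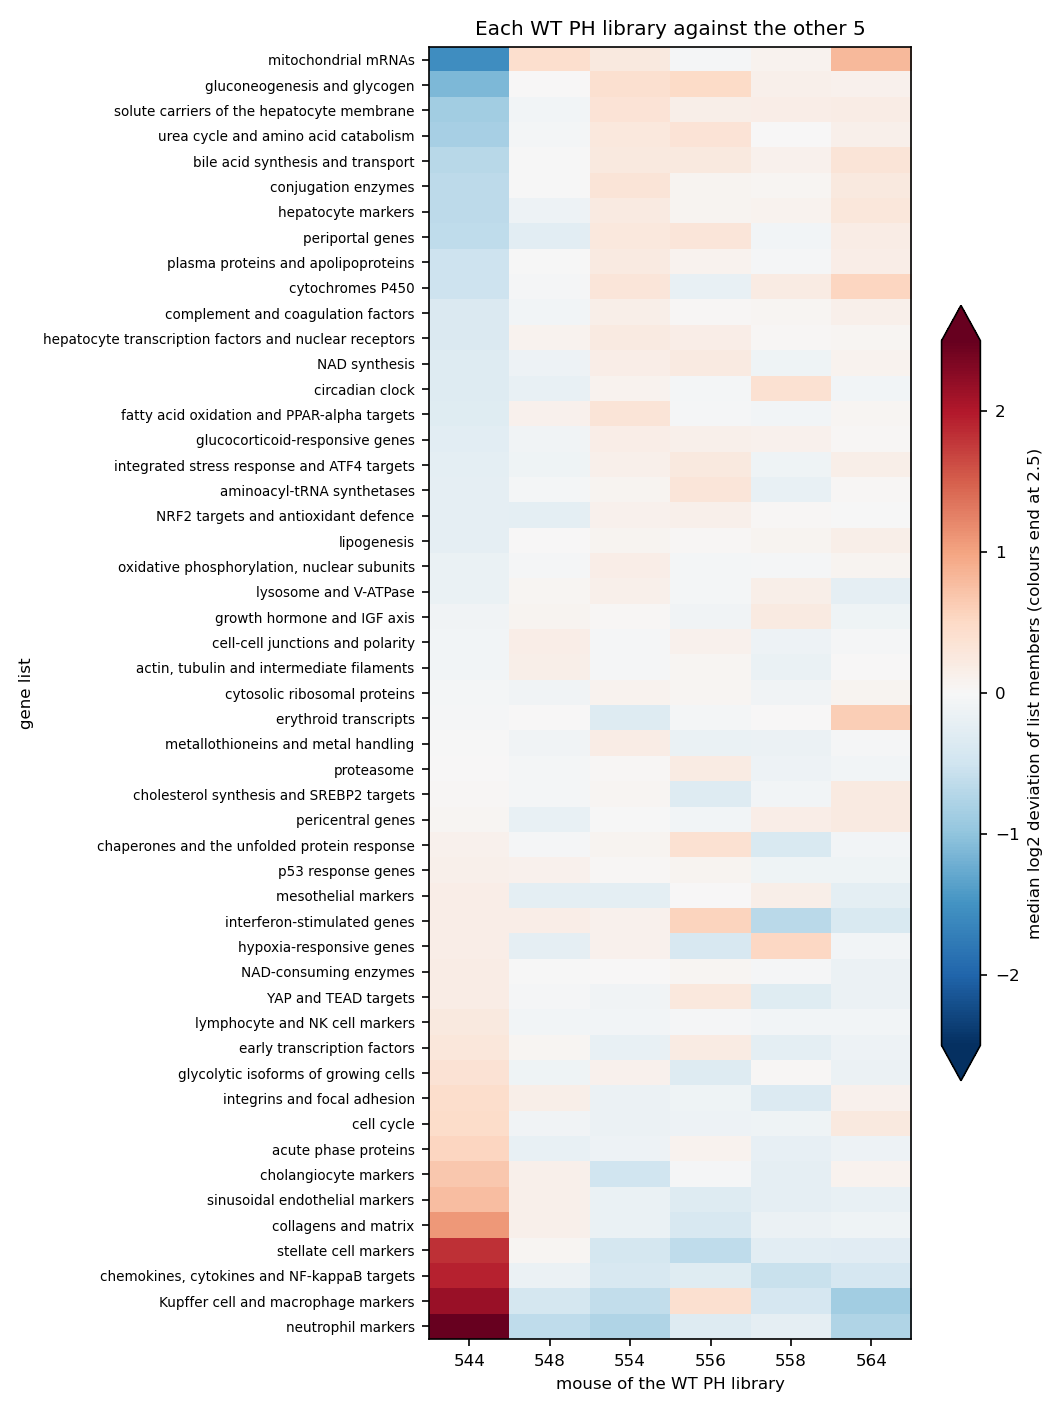
Median log2 deviation of each gene list in each WT PH library from the mean of the other 5 (colour, limited to 2.5 in either direction), with 1 column per mouse. The column of mouse 544 is highest for neutrophil (3.72), Kupffer cell (2.15), chemokine (1.92) and stellate cell (1.83) lists and lowest for mitochondrial mRNAs (-1.55). Of the 5 tested neutrophil markers 4 averaged below 1 CPM in PH.

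Many genes of protein synthesis rose. Of 69 cytosolic ribosomal protein genes 63 rose and none fell (median 0.76), such as Rpl12 (1.59 ± 0.11, SE, adjusted p = 9.65e-15). With the liver of mouse 558 kept in the fit 21 rose and 4 fell (median 0.17). Of 20 aminoacyl-tRNA synthetases 17 rose and none fell (median 0.94), led by Vars (3.03 ± 0.10, SE, adjusted p = 2.10e-22). Of 35 proteasome subunits 17 rose and 1 fell (median 0.20), or 34 and none under total counts and 10 and 4 with the liver of mouse 558. Of 30 lysosome and V-ATPase genes 17 rose and 5 fell (median 0.35). In the main fit, the proteasome and lysosome counts stand beside 37.5% higher and 38.2% lower over all genes. In the circadian clock 5 of 19 genes rose and 8 fell (median -0.54), beside 37.5% higher and 38.2% lower over all genes. Under total counts the median of the clock genes was -0.01. Dbp, an output factor of the clock, fell from 74.7, 225, 168, 124 and 210 CPM to 0.913 to 3.15 CPM (median 1.96 CPM), a change of -6.26 ± 0.68 (SE, adjusted p = 6.82e-10), and Nr1d1, the repressor REV-ERB alpha, by 3.57 on the log2 scale, whereas Npas2 rose (2.62 ± 0.69, SE, adjusted p = 0.00103). Collection times of L and PH within the day are not given in the sources used here. In the growth hormone and IGF axis 14 of 22 genes fell and 3 rose (median -0.94). The growth hormone receptor Ghr fell from 587 ± 24.2 CPM to 46.8 ± 4.65 CPM (-3.65 ± 0.13, SE, adjusted p = 6.99e-22), and Igf1 from 665 ± 144 CPM to 132 ± 50.9 CPM (-2.33 ± 0.21, SE, adjusted p = 9.34e-12).

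The 5 tested genes with the largest SD of log2 CPM over the livers were Cyp3a16, Sult2a1, A1bg, Slco1a1 and Zbtb16, and mouse 556 was the extreme library for each. Cyp3a16 was at 1.73 CPM, Sult2a1 at 2.93 CPM and A1bg at 45.1 CPM in its liver, below the other 4. Slco1a1 was at 202 CPM and Zbtb16 at 101 CPM, above the other 4. Over the PH libraries the most variable genes were Cxcl3, Cyp2b10, Cps1, Cxcl5 and Selenbp2, and mouse 544 held the lowest or the highest value of each. Selenbp2 was at 0.238 CPM there against a median of 10.7 CPM.

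The HNKO mice, which share no library with the WT comparison, were used to ask whether the change from liver to culture differed without hepatocyte Nampt. Nampt, the deleted gene, stood at 31.2, 52.1, 33.7, 39.8, 47.0 and 41.7 CPM in the HNKO livers of mice 540, 542, 546, 552, 562 and 566, each below the lowest WT liver (55.6 CPM). In their PH it stood at 69.1, 85.0, 78.2, 87.2, 85.0 and 72.5 CPM, all below the lowest WT PH (175 CPM). It rose by 1.31 ± 0.21 in WT and by 0.96 ± 0.20 in HNKO, with a difference that was not called, -0.35 ± 0.29 (adjusted p = 0.562). Over all genes, the PH minus L change differed between the genotypes for 245 (1.64% of those tested), more positive in HNKO for 94 and more negative for 151, and had opposite signs for 53 of them. This count rested on single mice. It was 1005 without mouse 544, 360 without 546 and 261 without 562, but 106, 56 and 113 without 540, 542 and 566, and 21, 35, 8, 40, 32 and 22 without 548, 552, 554, 556, 558 and 564. It was 378 with mouse as a block.

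Among the named genes the test called 9. Tes rose by 6.53 ± 0.36 in WT and by 4.50 ± 0.28 in HNKO, a difference of -2.03 ± 0.44 (adjusted p = 0.0225). Tgm2, the cross-linking enzyme transglutaminase 2, rose by 3.42 ± 0.20 and 2.23 ± 0.18, a difference of -1.19 ± 0.25 (adjusted p = 0.0219). Hmox1 rose by 3.37 ± 0.30 and 1.87 ± 0.26, a difference of -1.50 ± 0.37 (adjusted p = 0.0375). Tnfrsf10b and P4ha2 also rose less in HNKO (differences of -2.15 and -1.25, adjusted p = 0.0385 and 0.0249). Pfkp, a phosphofructokinase, rose by 4.60 ± 0.32 and 3.10 ± 0.27, a difference of -1.49 ± 0.39 (adjusted p = 0.0444). Tgfb2, a ligand of the TGF-beta family, rose by 3.88 ± 0.42 and 1.76 ± 0.33, a difference of -2.12 ± 0.52 (adjusted p = 0.0365). Slc2a2 fell further in HNKO than in WT, by a difference of -1.85 ± 0.43 (adjusted p = 0.0289), and the cathepsin Ctsh fell less (-2.44 ± 0.11 in WT and -1.73 ± 0.10 in HNKO), by a difference of 0.71 ± 0.14 (adjusted p = 0.0173). All 9 differences kept their sign without any single mouse, but none was called without mouse 554 (adjusted p = 0.0745 to 0.137), and only Ctsh was called without 548, 552, 558 or 564. With mouse as a block 8 of the 9 were called, the exception being Pfkp (adjusted p = 0.0662).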

How the data were processed

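Total RNA (500 ng) was depleted of ribosomal RNA and made into TruSeq Stranded libraries. Per the labels the authors aligned reads to GRCm38 with STAR 2.7.2b and counted fragments with both ends aligned with featureCounts 1.6.4; the strand setting is not given in the sources used here, so counts of overlapping and antisense genes are uncertain. The values the authors deposited are raw counts per gene, with no normalization. Symbols came from GENCODE M21 (54165 of 54232 identifiers; the other 67 held 0.00134% of the counts), while the study used M22. Coordinates are GRCm38, counted from 1.

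The fit used 35 of 36 libraries, without the WT liver of mouse 558; the study excluded one library of low quality without naming it. Genes were kept by filterByExpr (minimum count 10), which left 39300 genes untested with 0.0856% of the counts. Libraries were scaled by TMM and tested with the two-sided quasi-likelihood F test of edgeR 4.0.16 (earlier form of glmQLFit) in R 4.3.3; the model had a coefficient per group (6 groups), as in the study, and p-values were adjusted over all tested genes by Benjamini-Hochberg. CPM are TMM-scaled, and log2 CPM carry a prior count of 2. Shares of counts were compared by exact permutation of libraries in Python 3.11.15 (scipy 1.17.1). The fit was also run on simulated counts in which a small set of genes changed by equal amounts up and down. That setting does not bear on the choice of scaling, and its outcome is not reported here. Mouse numbers pair L and PH because both come from the same animal: deviations from the group means correlated at 0.101, -0.017, 0.0479, 0.0904 and 0.141 within mice 544, 548, 554, 556 and 564, against medians of -0.0527, 0.0289, 0.00984, -0.0156 and 0.0195 with other mice.

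The members and the gene lists were chosen with earlier results of these data known. Genes were named by a rule: the 12 largest rises and 12 largest falls in log2 fold change with 1 direction in 5 pairs and a mean of 10 CPM or more where higher, the 8 largest of each in mean CPM, up to 6 called members of a list with the smallest p, up to 3 against its median and up to 2 not called, anchor genes, and the 5 most variable genes of each group. A few genes that this rule names are not reported here. Other names are marked as chosen after their values were seen or are given for counts of 0. Alternatives were other scalings, no filter, DESeq2 1.42.0, other sets of libraries, mouse as a block, a minimum fold, and leaving out each mouse. Promoter windows were matched to RefSeq (GRCm38.p6) by symbol. Only 71.0% to 72.3% of the risers, fallers and tested genes had a window, so the comparison of motifs between them was void; the chemokine list was covered at 69.0% and is not read either.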

Additional observations from a re-analysis of the deposited data

Results flagged for a closer look

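For each of 201 values (the genes named in the text and the shares per library), the gap between the highest or lowest library and its neighbour was set against the whole range of the group. A gap this large arises by chance in about 1 in 20 groups of normally distributed values. CPM need not be normal, and some of the genes were named because they varied most. That rate therefore does not hold for them. It was found for 32 values in PH, of which mouse 544 held 24 as the highest and 3 as the lowest library. Acute phase and iron genes that were far above the other PH libraries in mouse 544 were Lcn2 (13047 CPM, against 7577 to 9186 CPM), Saa3 (5282 CPM, against 541 to 929.9 CPM) and Hamp (336 CPM, against 13 to 27 CPM). Chemokines, cytokines and their regulators that stood far above in it were Cxcl3 (145 CPM), Cxcl5 (101 CPM), Cxcl12 (64.7 CPM), Ccl5 (40.6 CPM), Il15 (1.15 CPM), Cebpd (47.4 CPM) and Tnfaip3 (339.6 CPM). Markers of endothelium, stellate cells, macrophages, neutrophils, bile duct and cell division that stood apart there were Pecam1 (45.1 CPM), Acta2 (0.635 CPM), Lum (2.62 CPM), Vsig4 (0.516 CPM), Mmp8 (5.52 CPM), Epcam (0.794 CPM), Spp1 (161 CPM) and Mki67 (0.556 CPM). Other genes at that position were Abcc4 (32.4 CPM), Axl (27.6 CPM), Hmga2 (58.5 CPM), Mdm2 (141 CPM), Nadk (477 CPM) and Psg22 (51.5 CPM). The same library was far below the others in Cat (322 CPM, against 538 to 631 CPM), Qprt (18.6 CPM, against 33.1 to 40.6 CPM) and mt-Co1 (9084 CPM, against 16802 to 19954 CPM). The PH of mouse 556 was far above the others in Cyp2b10 (512 CPM, against 8.02 to 171 CPM), Hspb1 (222 CPM, against 71.3 to 123 CPM) and Pck1 (99.3 CPM, against 5.04 to 23.4 CPM), and that of mouse 564 in Cyp7a1 (0.485 CPM, against 0 to 0.178 CPM). Hba-a1 had a single count in PH, in mouse 564 (0.0693 CPM).

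In the livers a gap of this kind was found for 21 of 201 values. The liver of mouse 556 stood highest in Cyp2b10 (6.76 CPM), Psat1 (4.81 CPM), Saa3 (6.09 CPM), Slco1a1 (202 CPM) and Zbtb16 (101 CPM) and lowest in Nr1i3 (205 CPM, against 420.3 to 498 CPM). That of mouse 554 stood highest in Hp (3259 CPM), Ndufb10 (148 CPM) and Oasl1 (23.7 CPM) and lowest in the share of mitochondrial ribosomal RNA (0.07204%, against 0.1019% to 0.111%). That of mouse 564 stood highest in Fosl1 (0.597 CPM), Tm4sf4 (156 CPM) and Vim (31.6 CPM) and lowest in Clec4g (48.2 CPM, against 52.6 to 53.8 CPM). That of mouse 544 stood highest in Abcb11 (1079 CPM) and Pdk4 (30.9 CPM) and lowest in Vars (25.8 CPM, against 28.4 to 29.4 CPM). In Cxcl3 and Slc7a11 (0.0751 and 0.150 CPM, mouse 556), Mmp24 (0.186 CPM, mouse 554) and Pgf (0.0627 CPM, mouse 548) 1 or 2 counts in 1 liver and none in the others made the gap, as with Hba-a1 in PH, and such a gap says nothing about the library.

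The PH minus L change of 9 genes named in the text differed between HNKO and WT in the test of that difference (edgeR, adjusted over all tested genes), and none of them was called without mouse 554. On the log2 scale the difference, HNKO minus WT, was 0.71 for Ctsh, -1.50 for Hmox1, -1.25 for P4ha2, -1.49 for Pfkp, -1.85 for Slc2a2, -2.03 for Tes, -2.12 for Tgfb2, -1.19 for Tgm2 and -2.15 for Tnfrsf10b.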

How the results depend on the processing

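Of the 194 genes named in the text 180 were called, and 23 of the 194 changed their call under at least 1 alternative. Of their 2898 values under the alternatives 2853 kept direction and call, 27 lost the call, 16 gained it and 2 turned. Those 2 came from scaling to total counts without TMM, which reversed Cdh2 (0.43) and Nadk (0.47, not called with TMM). It also raised the genes called at least 2-fold higher in PH from 2887 to 5239. A test against a change of 1.5-fold called 7765 genes and left 3462 genes higher in place of 5596. Leaving out a mouse gave 10854 to 11116 called genes against 11299, and the remaining alternatives (other scalings, no filter, DESeq2, other sets of libraries and the block) 10107 to 12772. Mouse as a replicate block gave 11456 called genes (5637 higher, 5819 lower), or 10107 over the 5 WT pairs alone. The block over 35 libraries changed no WT call of a named gene. The block over the pairs changed 4, which are given beside the genes. The genotype difference was called for 245 genes, for 378 with the block, for 660 with DESeq2, and for 8 to 1005 when a mouse was left out, an alternative added after the data were seen. The difference in the share of long non-coding RNA ran from -0.0125 to 0.0876 percentage points when a mouse was left out, and was not past the test's threshold with all of them.

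Low counts set the depth limit: a gene at 0 in a group of libraries is given with the bound that 3 counts allow. The CS libraries share lobes and dissociation with PH, and 522 genes (3.5%) were called between CS and L. Plating, the hours of culture, the dexamethasone and insulin of the medium and the mix of cells cannot be told apart here.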
